A study of Rattus norvegicus with 44 samples.

Results

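The inhibitory transmitter GABA was followed here through 9 genes of the rat dentate gyrus (DG), the entry region of the hippocampus. They were Gad1, Gad2 and Slc32a1, which make and package GABA, Gabbr1 and Gabbr2, which form the GABA-B receptor, and Gabra2, Gabra4, Gabra5 and Gabrd, which encode subunits of GABA-A receptors. The genes were taken by symbol from the authors' table of normalized values, in which they hold 26 rows, added up per gene. They are 9 of the 18347 gene identifiers in the table, and all 9 averaged 5 or more over the rats, as did the 15598 genes tested. RNA-seq libraries, 1 per rat, came from the DG of 44 male F344 rats in 4 groups of the same strain, sex and tissue, with vehicle or drug given by oral gavage. YNG were 10 young rats (6 months) given vehicle. The older rats received vehicle (AV, n = 12), ABT-263 (AA, n = 11) or dasatinib plus quercetin (ADQ, n = 11). Their age is 12 months in the labels, which the methods give as the age when treatment began. Tissue was taken after treatment that the methods describe as spanning 6 months. ABT-263, an inhibitor of BCL-2 family proteins also known as navitoclax, and the pairing of the kinase inhibitor dasatinib with the plant flavonoid quercetin are senolytics, agents that remove senescent cells, and were given in repeated cycles. Each library is a separate rat, so the p-values below measure the spread between rats.

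GABA is made from glutamate by a pair of glutamate decarboxylases. The Gad1 enzyme supplies most of the transmitter throughout the cell, and the Gad2 enzyme sits at nerve endings and is recruited during activity. The product of Slc32a1, the vesicular GABA transporter, loads GABA into synaptic vesicles. In the DG these genes mark the scattered interneurons, while the far more numerous granule cells carry most of the receptors. GABA-A receptors are chloride channels assembled from several subunits, and receptors with the delta subunit (Gabrd) lie outside synapses, where they carry a steady tonic inhibition that is prominent in granule cells. GABA-B receptors couple to G proteins and need both of their subunits at the cell surface.

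Values are normalized reads, that is, the reads the authors assigned to a gene divided by a size factor per library. They depend on transcript length, so levels are compared between rats and never between genes. The libraries held an estimated 10166556 to 24328425 reads, and in bulk tissue fewer cells of a type and less RNA per cell cannot be told apart. Of 10 markers of dentate granule cells, 8 passed the filter (Lct and Tdo2 did not), and Prox1, a defining marker, was measured in every group. In 4 libraries that stood apart, the summed granule cell markers were below 0.75 of the median of 21091 over all rats. The sums were 5946 in AA rat 4107, 10452 in AA rat 3996, 11898 in AV rat 3989 and 14199.6 in AV rat 4571, against 16692 in the next lowest rat. The same 4 libraries held summed CA1 pyramidal cell markers of 50257, 21989.8, 33628 and 24921, where the YNG rats spanned 2743 to 20552. High CA1 sums were not confined to them. AV rat 3890 held 28477.7 with a granule cell marker sum of 20182.3, and it stays in the fits without these 4 libraries. Rats were also split into a lower number range (3890 to 4011 and V1 to V6) and an upper one (4031 to 4572 and V9 to V12). These ranges were named with earlier results of these data known, and the labels do not link the YNG numbers to those of older rats. In the upper range every AV rat was numbered 4566 to 4572 and no AA or ADQ rat was above 4110, so the number block and the treatment cannot be told apart there.

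**Figure D1:**
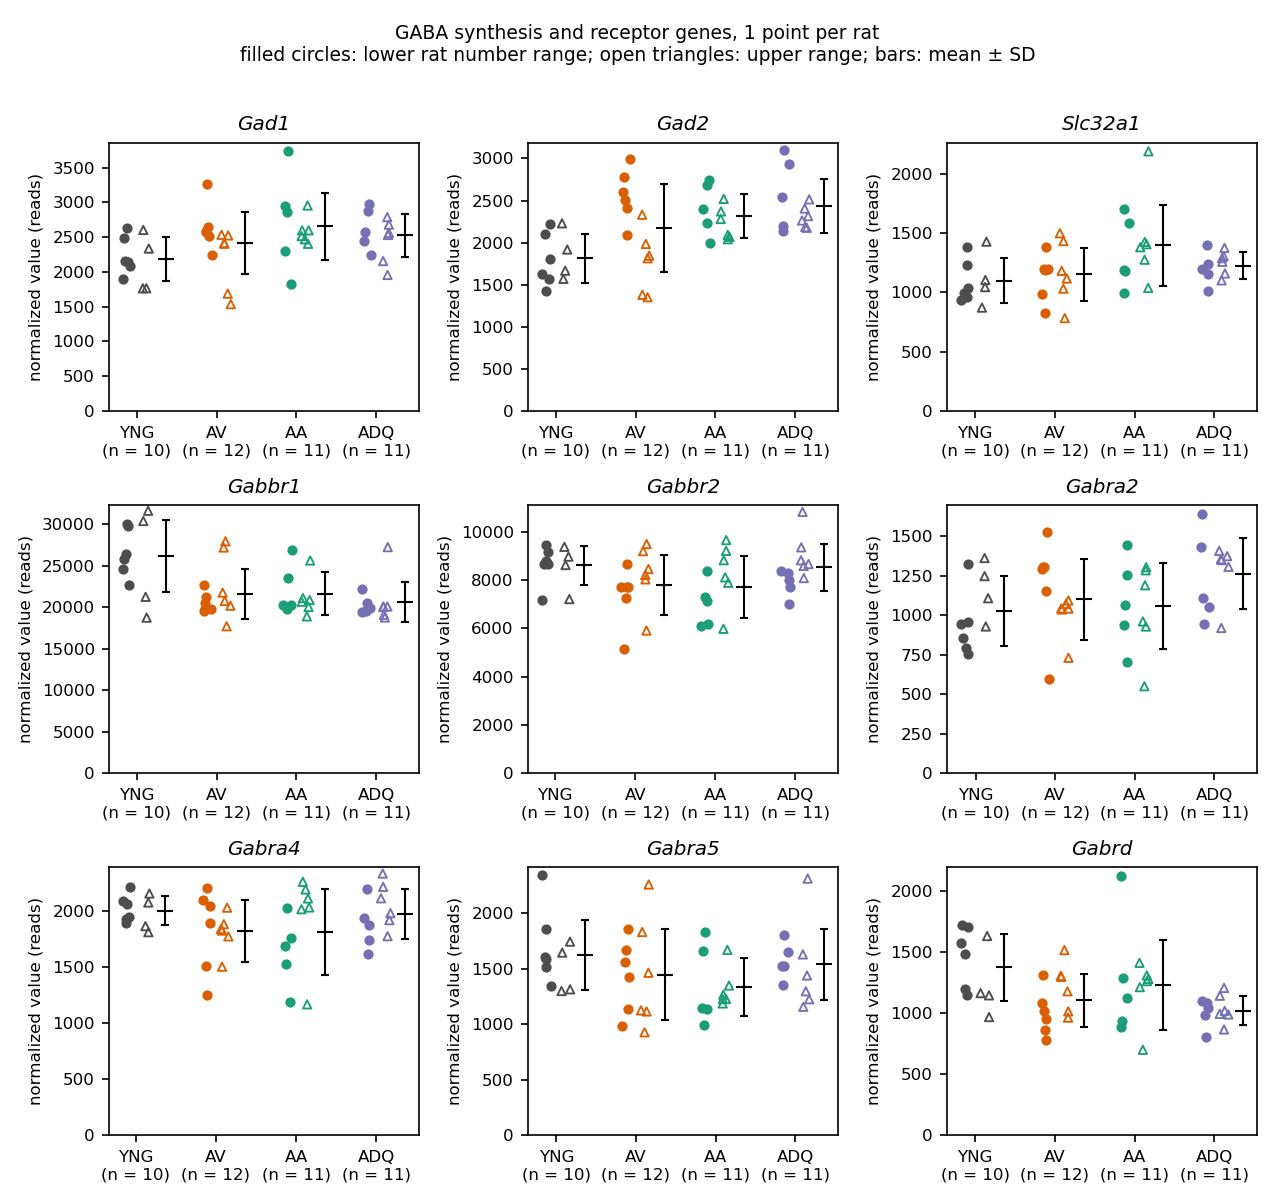
Normalized value (vertical axes, normalized reads, from 0) of each of the 9 genes in each of the 44 rats, by group. Filled circles are rats of the lower number range, open triangles rats of the upper range, and the black bars the mean ± SD of the group. Gad2 lies higher and Gabbr1 lower in most older rats than in most YNG rats, and all but 1 of the upper-range AV rats lie below every lower-range AV rat for Gad2.

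Against YNG, the older rats had more Gad1 and Gad2 RNA and less Gabbr1 and Gabrd RNA, while Slc32a1, Gabbr2, Gabra2, Gabra4 and Gabra5 did not pass the threshold when the 3 older groups were averaged. The differences were modest. On the mean of the AV, AA and ADQ means, Gad2 was 1.27-fold and Gad1 1.15-fold the YNG level, Gabbr1 0.82-fold and Gabrd 0.81-fold. These 4 calls of 9 genes stand beside a background of 32.4% of all genes tested (15.7% higher and 16.7% lower) at an unadjusted p below 0.05 in limma, the threshold of the study. After Benjamini-Hochberg adjustment over all genes, 3 of the 9 genes (Gad2, Gabbr1 and Gabrd) passed, beside a background of 14.9%. In the separate comparisons with YNG, which all share the same 10 YNG rats, as the average of older rats does, 3 genes were called for AV (background 21.3%, of which 10.6% rises and 10.7% falls), 5 for AA (26.6%, with 12.6% and 14.1%) and 5 for ADQ (28.1%, with 13.5% and 14.6%). After adjustment 0 passed for AV (background 2.35%), 1 for AA (3.85%) and 3 for ADQ (7.08%). Of the genes called for older rats, 48.4% were higher with the values as deposited, 57.7% after an upper quartile scaling and 83.1% after scaling each library to the same total, which shifts the median of all genes by 0.13. For AV the 3 shares were 49.6%, 61% and 81.1%, for AA 47.2%, 56.5% and 85.3%, and for ADQ 48%, 56.5% and 82.6%. Leaving out the 4 libraries of low granule cell markers, a choice made after seeing the data, gave 5 calls for older rats together, with Gabra2 added (0.24 on the log2 scale, p = 0.01251 in limma). The share of all genes called in that fit is not given here, so the 5 calls cannot be set against it.

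Sequence just upstream of a gene is where its transcription is set in part, and the promoters of the 4 genes called in the older rats are shown for that reason. They are from RefSeq on the GRCr8 build, which is not the rn6 build of the deposited values, and run from 250 bases before the start of transcription through the first 50 bases after it. Capitals mark every match, on either strand, to GGGCGG (the GC box), TATAAA (the TATA box), CCAAT (the CCAAT box), TGACGTCA (the cAMP response element), GCGNGGGCG (the EGR motif) and CACGTG (an E-box).
Gad2, chr17:89671468-89671767, plus strand: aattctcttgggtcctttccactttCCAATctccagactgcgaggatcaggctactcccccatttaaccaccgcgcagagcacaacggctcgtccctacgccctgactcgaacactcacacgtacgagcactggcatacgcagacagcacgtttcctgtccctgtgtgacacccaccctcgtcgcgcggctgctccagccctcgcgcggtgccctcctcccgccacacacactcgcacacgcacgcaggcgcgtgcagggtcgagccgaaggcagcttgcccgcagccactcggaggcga
Gad1, chr3:75777202-75777501, plus strand: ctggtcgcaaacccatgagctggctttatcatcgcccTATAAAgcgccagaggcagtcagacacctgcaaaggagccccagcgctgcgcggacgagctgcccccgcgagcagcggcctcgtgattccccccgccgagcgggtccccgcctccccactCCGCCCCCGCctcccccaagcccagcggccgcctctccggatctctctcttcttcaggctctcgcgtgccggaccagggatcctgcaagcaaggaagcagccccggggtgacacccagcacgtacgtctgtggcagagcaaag
Gabbr1, chr20:1499187-1499486, minus strand: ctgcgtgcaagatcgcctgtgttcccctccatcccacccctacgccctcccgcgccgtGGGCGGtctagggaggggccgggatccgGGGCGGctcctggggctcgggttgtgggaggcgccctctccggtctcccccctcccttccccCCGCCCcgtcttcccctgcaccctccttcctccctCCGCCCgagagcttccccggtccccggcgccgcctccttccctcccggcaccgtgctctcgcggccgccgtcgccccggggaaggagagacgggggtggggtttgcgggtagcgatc
Gabrd, chr5:171252660-171252959, minus strand: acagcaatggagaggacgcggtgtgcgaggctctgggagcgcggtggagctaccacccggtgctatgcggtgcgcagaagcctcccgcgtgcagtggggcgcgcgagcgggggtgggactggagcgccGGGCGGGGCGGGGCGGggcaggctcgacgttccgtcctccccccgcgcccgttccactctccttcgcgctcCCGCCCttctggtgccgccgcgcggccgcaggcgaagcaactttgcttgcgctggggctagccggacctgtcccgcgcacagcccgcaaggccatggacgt

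The Gad2 window held 1 CCAAT match and none of the other motifs. The Gad1 window held 1 TATAAA match, starting at -213 from the start of transcription, and 1 GGGCGG match that overlaps a GCGNGGGCG match. The Gabbr1 and Gabrd windows held 4 GGGCGG matches each, and 3 of those of Gabrd follow one another with single shared bases. A match is a string of letters and not a shown binding site. Of the 33469 RefSeq windows of this length, 33.1% hold GGGCGG, 14.2% TATAAA, 37.5% CCAAT, 1.83% TGACGTCA, 4.98% GCGNGGGCG and 6.42% CACGTG. Among the 8 genes matched in the table (Gabra2 was not matched), 7 held GGGCGG, Gad2 being the exception, 2 held CCAAT (Gad2 and Slc32a1), 2 held GCGNGGGCG (Gad1 and Gabra4), 1 held TATAAA (Gad1) and 0 held TGACGTCA or CACGTG. The 8 windows were 63.7% (Gad2) to 78.7% (Gabbr2) G or C, where the median of all windows was 51.7%.

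Gad2, the decarboxylase of nerve endings, rose in AA and ADQ, and in AV by a call that depends on the fit. Its lowest, median and highest values were 1419.6, 1735 and 2229 normalized reads in YNG, 1351, 2208 and 2997 in AV, 1990.0, 2281 and 2746 in AA and 2140.2, 2315 and 3096 in ADQ. Every AA and every ADQ rat was above the YNG median, and 7 of 11 in each of these groups were above the highest YNG rat, but the groups overlapped. Of the 12 AV rats, 10 were above the YNG median and 6 above the highest YNG rat, while 2 were below the lowest. The log2 difference from YNG was 0.43 ± 0.11 (SE), p = 0.0002522, adjusted p = 0.02018 for ADQ. It was 0.36 ± 0.11 (SE), p = 0.001827, adjusted p = 0.04944 for AA. For AV it was 0.24 ± 0.11 (SE), p = 0.03058, adjusted p = 0.1878. The AV call did not hold without 1 of 8 rats (V1, V2, V4, V12, 3890, 3989, 4009 or 4011), with p up to 0.07269 without AV rat 3890, and without the 4 libraries of low granule cell markers (p = 0.05749 in limma). A fit of the AV and YNG rats alone gave p = 0.07612 in limma. A permutation test of the 22 rats gave p = 0.09296. The AA and ADQ calls held without each rat. In the order of the group means, YNG, AV, AA and ADQ, YNG and AV differed at the unadjusted threshold, and the neighbours AV and AA did not differ beyond their spread (95% interval of the log2 difference -0.087 to 0.33), nor did AA and ADQ (-0.28 to 0.14 for AA minus ADQ).

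Gad1, which encodes the more widely distributed decarboxylase, rose less. Its lowest, median and highest values were 1764, 2149 and 2625 in YNG, 1537, 2518 and 3260.1 in AV, 1829, 2597 and 3743 in AA and 1957, 2561 and 2979 in ADQ. In each older group all but 1 or 2 rats were above the YNG median (10 of 12 AV, 10 of 11 AA and 10 of 11 ADQ). The log2 difference from YNG was 0.27 ± 0.10 (SE), p = 0.01156, adjusted p = 0.09263 for AA. The ADQ difference, 0.21 ± 0.10 (SE), p = 0.04751, adjusted p = 0.1726, was near the threshold and was lost in 18 of 44 fits without 1 rat (V1, V2, V3, V4, V9, V12, 4566, 4569, 4035, 4077, 4004, 4005, 4006, 4007, 4031, 4074, 4105 or 4110). AV gave 0.13 ± 0.10 (SE), p = 0.2108, adjusted p = 0.4627, which did not pass. The older rats on average differed by 0.21 ± 0.086 (SE), p = 0.02089, adjusted p = 0.08931, a call lost without YNG rat V9 or V12, the pair with the lowest YNG values (p up to 0.05798). The group means ran YNG, AV, ADQ, AA from low to high, and no neighbours in that order differed beyond their spread.

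Slc32a1, the vesicular GABA transporter, ran 871, 1041 and 1427 (lowest, median, highest) in YNG and 782, 1183 and 1497 in AV. In AA it ran 993, 1379 and 2187, and in ADQ 1007, 1239 and 1394. The ADQ rats were the tightest group, and the highest AA value came from rat 4107, the library with the fewest granule cell markers. AA differed from YNG by 0.33 ± 0.11 (SE), p = 0.005284, adjusted p = 0.06749, a call that held without each rat. For AV the difference was 0.059 ± 0.11 (SE, adjusted p = 0.7815) and for ADQ 0.17 ± 0.11 (SE, adjusted p = 0.3232), neither past the threshold. For the older rats together it was 0.18 ± 0.092 (SE), p = 0.05029, adjusted p = 0.1545, just outside the threshold, and it was called in 14 of the 44 fits without 1 rat (V3, V6, V9, 3989, 3999, 4567, 4572, 3984, 3985, 3996, 4036, 4069, 4006 or 4074) and under both other scalings (p = 0.002149 for the total). The group means ran YNG, AV, ADQ, AA, with no neighbours apart beyond their spread.

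**Figure D2:**
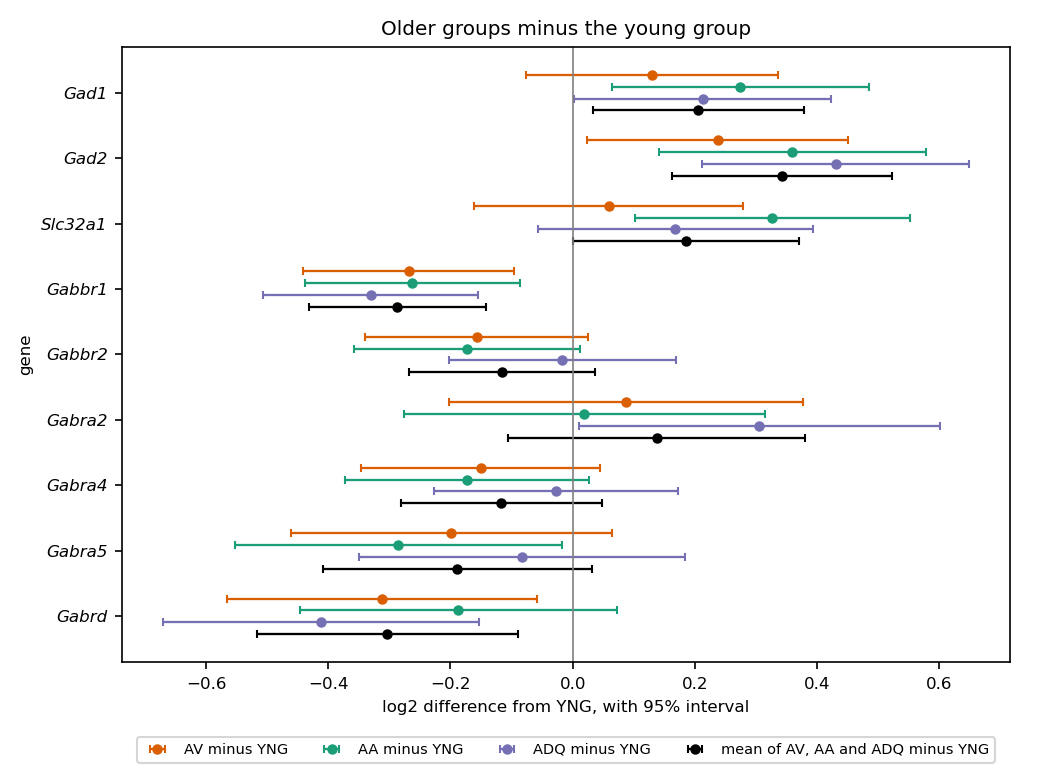
Log2 difference from YNG (horizontal axis) of AV, AA, ADQ and the mean of the 3 older groups for each gene, with 95% intervals from limma over 44 rats. Intervals of Gad2 lie to the right of 0 and those of Gabbr1 to the left of 0 in all 4 comparisons, and the intervals of Gabbr2 and Gabra4 include 0 in all 4.

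Gabbr1, the subunit of the GABA-B receptor that binds GABA, fell in all 3 older groups. Its lowest, median and highest values were 18737, 26059 and 31618 in YNG, 17694, 20626 and 27932 in AV, 18885, 20654 and 26856 in AA and 18751, 20009 and 27230.1 in ADQ. Of the older rats, 30 of 34 were below the YNG median, although the YNG rats spread widely and only 1 older rat was below the lowest of them. The log2 differences were -0.27 ± 0.086 (SE, adjusted p = 0.07923) for AV, -0.26 ± 0.087 (SE, adjusted p = 0.0633) for AA and -0.33 ± 0.087 (SE, adjusted p = 0.02302) for ADQ, and all 3 had an unadjusted p below the threshold in limma, in each of the 44 fits without 1 rat as well. For older rats together the difference was -0.29 ± 0.072 (SE), p = 0.0002383, adjusted p = 0.0103. Gabbr1 moved with the total of a library's normalized values. That total was highest in YNG (median 16660960, against AV 15537154, AA 15470836 and ADQ 15376067). After removal of group means it went with Gabbr1 at Pearson r = 0.776 over 44 rats (permutation p = 1e-05, the smallest these resamples can give). Scaling each library to the same total, which shifts the median gene by 0.13 for older rats against YNG, left a Gabbr1 difference of -0.16 (p = 0.005307 in limma), and ended the call for AA (-0.11, p = 0.08764). The group means ran ADQ, AV, AA, YNG from low to high, and of these neighbours only AA and YNG differed.

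The partner subunit Gabbr2, which couples the receptor to G proteins, was not called against YNG in the unweighted fit of all rats without a covariate. Its lowest, median and highest values were 7195, 8732 and 9458 in YNG, 5129.6, 7878 and 9501 in AV, 5984, 7892 and 9663 in AA and 6993, 8366 and 10833 in ADQ. In AV 2 rats and in AA 4 rats were below every YNG value. For older rats together the 95% interval of the log2 difference was -0.27 to 0.037. AA against YNG was called in 6 of 44 fits without 1 rat (V6, V12, 3989, 4069, 4070 or 4077) and AV against YNG without rat 4567. With the number range as a covariate AA against YNG was called (-0.19, p = 0.03163 in limma). Within the lower number range Gabbr2 was lower by a called difference for AA (-0.31, p = 0.01524), AV (-0.25, p = 0.03901) and older rats together (-0.23, p = 0.02196, limma). AV against YNG was also called with weights for each library (p = 0.04184), whereas scaling to the library total gave 0.015 for older rats together (p = 0.8431). The means ran AA, AV, ADQ, YNG, with no neighbours apart beyond their spread.

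Among the GABA-A subunits, Gabrd, the delta subunit of extrasynaptic receptors, was lower in AV and in ADQ than in YNG. Its lowest, median and highest values were 965, 1341 and 1721 in YNG, 775, 1049 and 1513 in AV, 697, 1259 and 2122 in AA and 798, 1016 and 1203 in ADQ. No ADQ rat and 1 of 12 AV rats were above the YNG median. AA was the widest group and held both the lowest value (rat 4107) and the highest of all 44 rats (rat 3988). The log2 differences were -0.41 ± 0.13 (SE, adjusted p = 0.04289) for ADQ and -0.31 ± 0.13 (SE, adjusted p = 0.1506) for AV, both held without each rat at the unadjusted threshold in limma. For AA the difference was -0.19 ± 0.13 (SE), p = 0.1525, adjusted p = 0.3455, and without rat 3988 it was called (p = 0.02755). For older rats together it was -0.30 ± 0.11 (SE), p = 0.006269, adjusted p = 0.04575, and scaling to the library total ended that call (-0.17, p = 0.1036) and the one for AV (p = 0.09826). The means ran ADQ, AV, AA, YNG, and no neighbours in that order differed beyond their spread.

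None of the 3 alpha subunits was called for the older rats on average. Gabra5, whose receptors carry tonic currents in hippocampal pyramidal cells, ran 1298, 1593 and 2345 (lowest, median, highest) in YNG and 995, 1226 and 1825 in AA. It differed by -0.29 ± 0.13 (SE), p = 0.03681, adjusted p = 0.1593 for AA, a call lost in 9 of 44 fits without 1 rat (V1, V4, V12, 3984, 3988, 3996, 4035, 4069 or 4077) and without the 4 libraries of low granule cell markers (p = 0.06797 in limma) and under both other scalings, and by -0.20 ± 0.13 (SE, adjusted p = 0.3695) for AV and -0.083 ± 0.13 (SE, adjusted p = 0.7149) for ADQ. Gabra2, the alpha subunit found at the axon initial segment, ran 755, 949 and 1361 in YNG and 918, 1348 and 1642 in ADQ, a log2 difference of 0.31 ± 0.15 (SE), p = 0.04259, adjusted p = 0.1622. That call was lost in 13 of 44 fits without 1 rat (V1, V2, V3, V4, V6, V12, 4006, 4007, 4031, 4032, 4074, 4106 or 4110). In AV and AA the Gabra2 medians were 1082 and 1065, and neither group passed against YNG, with log2 differences of 0.087 ± 0.14 (SE, adjusted p = 0.7547) and 0.019 ± 0.15 (SE, adjusted p = 0.95). Without the 4 libraries of low granule cell markers AV was called (0.23, p = 0.04753 in limma), as it was with weights for each library (p = 0.04352), and AA was at 0.18 (p = 0.126). Gabra4, the usual partner of the delta subunit in granule cells, was the steadiest in YNG (2000.4 ± 132, SD, n = 10) and spread more in AV (1819.5 ± 278, n = 12), AA (1812 ± 384, n = 11) and ADQ (1970.2 ± 221, n = 11). It was called in no comparison of the fit of all rats, and its 95% interval for older rats together was -0.28 to 0.047. AA against YNG was, however, called without rat 4069 or 4077 and within the lower number range (-0.32, p = 0.02808 in limma). The means ran AA, AV, ADQ, YNG for Gabra4 and Gabra5 and YNG, AA, AV, ADQ for Gabra2, with no neighbours apart beyond their spread.

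The senolytic groups were then compared with AV, to see whether the 9 genes differed after treatment within the older rats. AA against AV gave 1 call of 9 (background 4.51% of genes, 1.4% higher and 3.1% lower), ADQ against AV 0 (9.32%, 3.42% and 5.9%) and AA against ADQ 0 (4.53%, 2.13% and 2.4%), at an unadjusted p below 0.05 in limma. No gene of the 15598 (0% in each) passed the adjusted threshold in any of these 3 comparisons, the first pair of which share the AV rats. The call was Slc32a1, higher in AA than in AV by 0.27 ± 0.11 (SE), p = 0.01564, adjusted p = 0.9989, and without AA rat 4107 it was lost (p = 0.0533). For Gad2 the ADQ minus AV difference was 0.19 ± 0.10 (SE), p = 0.06833, adjusted p = 0.5869, and it was called without AV rat 3890, 3989, 4009 or 4011 (p down to 0.02295). It was also called with the number range as a covariate (0.20, p = 0.04023 in limma), and without the AV rats of the upper range it was -0.077 (p = 0.4343). Differences of ADQ from AV had 95% intervals of -0.12 to 0.28 for Gad1, -0.015 to 0.40 for Gad2, -0.23 to 0.11 for Gabbr1 and -0.35 to 0.15 for Gabrd. For AA against AV the intervals were -0.056 to 0.35, -0.087 to 0.33, -0.16 to 0.17 and -0.12 to 0.37 for the same genes. Intervals of Gad1 in both groups, and of Gad2 and Gabrd in ADQ, reached the size of the older minus YNG difference, away from YNG. That of Gabrd in AA reached it in the direction of YNG, and no other interval given here did so. The comparison therefore does not show that the groups were alike. AA and ADQ, whose agents differ in kind, differed by -0.29 ± 0.14 (SE), p = 0.05102, adjusted p = 0.9809 for Gabra2, which was called in 15 of 44 fits without 1 rat (V1, V5, V10, 3989, 4011, 4571, 3984, 3985, 4069, 4070, 4077, 3994, 4004, 4005 or 4105). Without the 4 libraries of low granule cell markers it was -0.13 (p = 0.2595 in limma). Gabrd differed by 0.22 ± 0.13 (SE), p = 0.07982, adjusted p = 0.9809, higher in AA. It was called without those 4 libraries (0.36, p = 0.00409 in limma) and with weights for each library (0.28, p = 0.005837). With those weights 1584 of the 15598 genes tested were called for AA against ADQ. Leaving out 1 rat gave a call without AA rat 3983, 3996 or 4107. Without AA rat 3988, the highest Gabrd value of the 44 rats, the difference fell to 0.14 (p = 0.2338 in limma).

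Among AV rats the number ranges differed, with the largest difference in Gad2. In the lower range the AV rats 3890, 3989, 3999, 4009, 4010 and 4011 had Gad2 values of 2997, 2775, 2085, 2504, 2416 and 2607. In the upper range the AV rats 4566, 4567, 4568, 4569, 4571 and 4572 had 2332, 1351, 1814, 1984, 1845 and 1380.2. Only rat 4566 of the upper range was above the lowest rat of the lower range. Rats 4567 and 4572, the lowest of these, had library totals of 17481528 and 18998183, above the AV median of 15537154. Lower-range rat 3989, with 2775, had a total of 17721237. With group means removed, Gad2 went against the library total at r = -0.525 over 44 rats. The part of the total in the difference between the ranges was not tested. YNG rats averaged 1791 ± 317 (SD, n = 6) in the lower and 1846 ± 295 (n = 4) in the upper range, AA rats 2412 ± 315 (n = 5) and 2228 ± 193 (n = 6), and ADQ rats 2582 ± 426 (n = 5) and 2309 ± 131 (n = 6). Within the lower range AV differed from YNG by 0.53 on the log2 scale, and within the upper range by -0.062. The difference between the ranges was -0.59 ± 0.18 (SE; limma, unadjusted p = 0.002255, adjusted p = 0.05026), in a test that called 21.8% of all genes and 2 of the 9. The ranges were named with earlier results known, so these p-values are not those of a split fixed in advance.

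The other gene was Gabrd, whose AV minus YNG difference was -0.56 in the lower range and -0.0080 in the upper one (limma, unadjusted p of the difference 0.03351, adjusted p = 0.1887). Against AV, Gad2 was higher by 0.34 in AA and by 0.40 in ADQ within the upper range (p = 0.006522 and 0.002108 in limma), and differed by -0.089 and 0.0034 within the lower range (p = 0.5025 and 0.9792). In ADQ against YNG, Gad2 was higher in both ranges, by 0.53 (p = 0.0004779) and 0.33 (p = 0.01554), and likewise in AA, by 0.44 (p = 0.00276) and 0.28 (p = 0.03885). For Gabbr1 the older minus YNG difference was -0.34 in the lower range (p = 0.0003372 in limma) and -0.22 in the upper (p = 0.1145), and for Gad1 it was 0.24 (p = 0.03777) and 0.19 (p = 0.1486). Within the upper range alone, where YNG had 4 rats, none of the 9 genes was called for AV or for older rats together. Of the 15598 genes tested, 984 were called for AV and 1375 for older rats together in that fit. In the lower range 5212 were called for AV. Few calls would therefore come from any 9 genes in the upper range, and their absence is not particular to these genes.

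**Figure D3:**
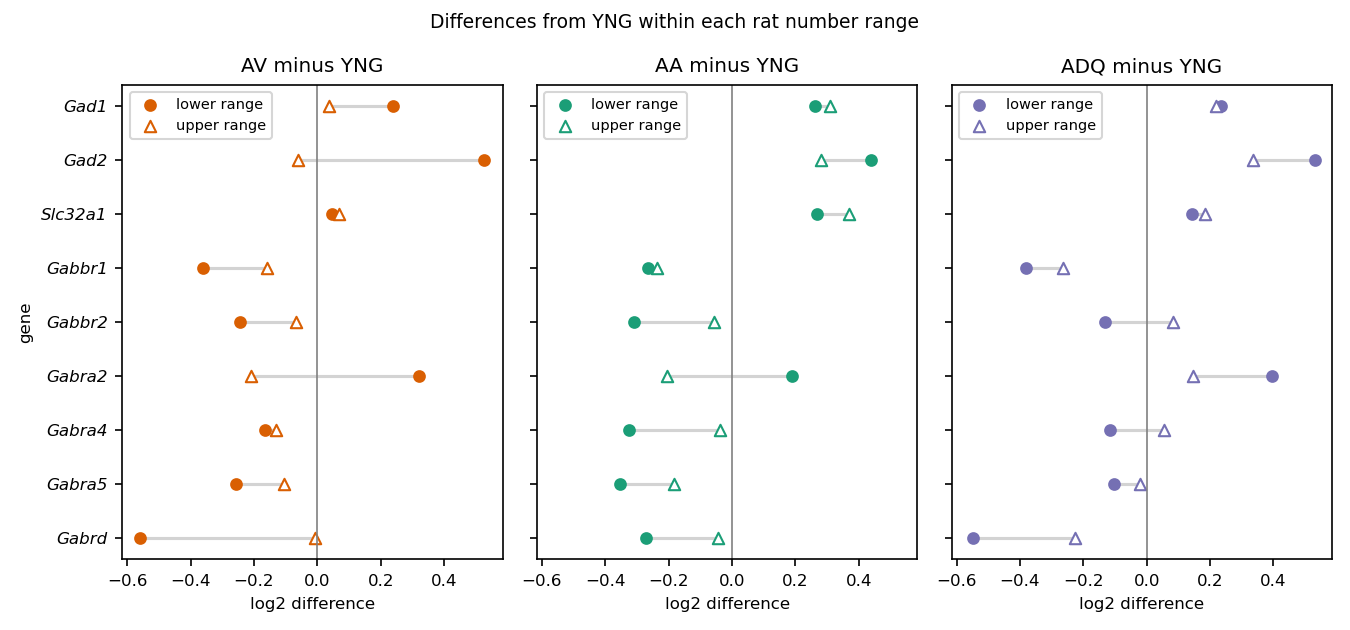
Log2 difference from YNG (horizontal axes) of AV, AA and ADQ rats for each gene, computed within the lower rat number range (filled circles) and the upper range (open triangles), joined by a grey line. The widest gaps in AV are those of Gad2, Gabrd and Gabra2, and Gad2 lies to the right of 0 in both ranges for AA and ADQ.

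Rat by rat, Gabra4, Gabbr2, Gabra2 and Gabrd followed the summed granule cell markers, a list that holds none of the 9 genes. With group means removed, Gabra4 went with the log2 marker sum at Pearson r = 0.839 and Spearman rho = 0.763 over 44 rats (permutation p = 1e-05 for each, the smallest these resamples can give, and 9e-05 after adjustment over 27 relations). Gabbr2 gave r = 0.687 and rho = 0.638, Gabra2 r = 0.651 and rho = 0.407, and Gabrd r = 0.619 and rho = 0.564 (adjusted permutation p of r 9e-05, 0.000378 and 0.000694). Without rats 4107 and 3996, the farthest from the median, r was 0.79 for Gabra4, 0.712 for Gabbr2, 0.503 for Gabra2 and 0.465 for Gabrd. Within the lower and upper ranges r was 0.853 and 0.931 for Gabra4 and 0.465 and 0.766 for Gabrd. The 4 libraries that stood apart held the 4 lowest values of Gabra4, of Gabra2 and of Gabbr2. Gabra4, for example, was 1165, 1185, 1252 and 1501 in rats 4107, 3996, 3989 and 4571. For Gabra5 the coefficients were near 0 (r = 0.00786, rho = -0.0534, permutation p = 0.961 and 0.727). Gabbr1 gave r = -0.199 and rho = -0.138, and Gad2 r = -0.194 and rho = -0.273 (adjusted permutation p of r 0.267 and 0.267). For Gad1 the coefficients were negative, r = -0.309 and rho = -0.397 (adjusted permutation p 0.146 and 0.0158), as they were for Slc32a1, r = -0.4 and rho = -0.267 (adjusted permutation p 0.0756 and 0.134; r = -0.269 without rats 4107 and 3996). Whether the amount of granule cell tissue in a library set these levels was not tested.

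**Figure D4:**
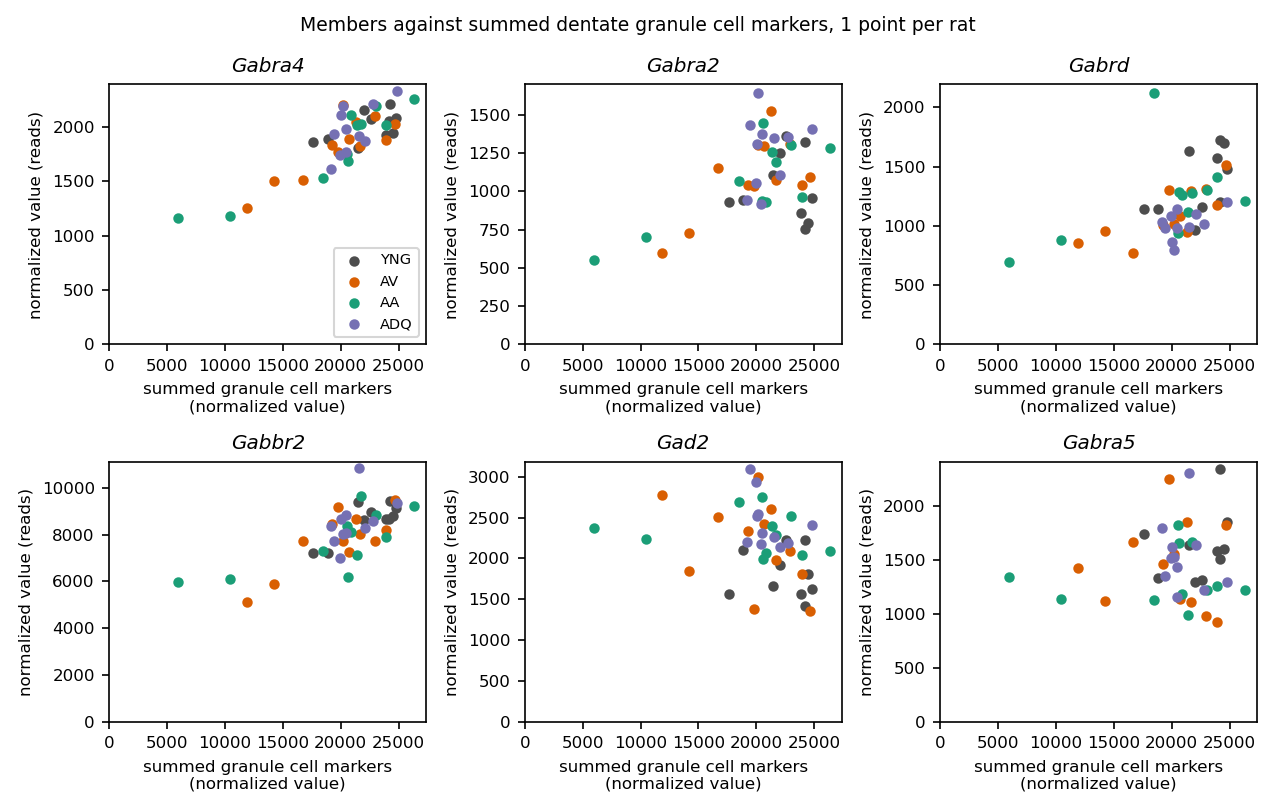
Normalized value of 6 of the genes (vertical axes) against the sum of 10 dentate granule cell markers (horizontal axes, normalized reads), 1 point per rat, coloured by group. The 2 AA and 2 AV rats with the lowest marker sums sit at the bottom of the Gabra4, Gabra2 and Gabbr2 panels and within the range of the others in the Gad2 and Gabra5 panels.

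Pairs of the 9 genes were compared in the same way, 36 pairs in all. Gad1 and Gad2 went together (r = 0.702, rho = 0.626, permutation p = 1e-05 for each, adjusted p of r 6e-05), in the lower range (r = 0.608) and the upper (r = 0.738) and without the 2 farthest rats (r = 0.643). Their usual companion Slc32a1 was less closely tied to Gad1 (r = 0.284, rho = 0.156, permutation p = 0.0915 and 0.329). Gabra2 and Gabra4 gave the highest coefficient (r = 0.744, rho = 0.64, adjusted permutation p = 6e-05 and 0.00024; r = 0.624 without the 2 farthest rats). Gabbr1 went with Gabra5 (r = 0.685, rho = 0.653, adjusted permutation p = 6e-05 and 0.00018) and against Gad1 (r = -0.661, rho = -0.551, adjusted permutation p = 6e-05 and 0.00144). With its partner Gabbr2 they were near 0 (r = -0.00569, rho = -0.00324, permutation p = 0.969 and 0.984). The library total moved with the same genes, at r = 0.776 for Gabbr1, 0.588 for Gabra5, -0.633 for Gad1 and -0.525 for Gad2 (adjusted permutation p 9e-05, 0.00054, 0.000202 and 0.00516), and its part in these pairs was not tested.

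**Figure D5:**
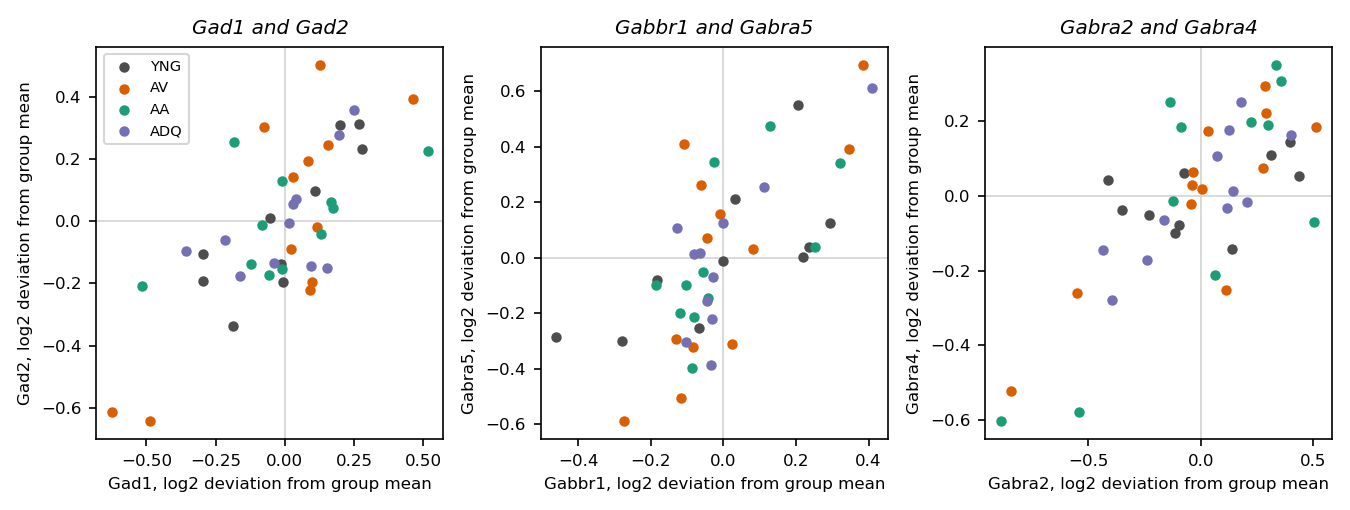
Log2 deviation of each rat from its group mean for 3 pairs of genes, 1 point per rat and 44 rats, coloured by group. Gad1 and Gad2, Gabbr1 and Gabra5, and Gabra2 and Gabra4 rise together, and 2 AV rats lie at the lower left of the Gad1 and Gad2 panel.

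Of all other genes tested, those whose log2 values followed each gene most closely over the 44 rats, with group means removed, were Fam13b, Stx3 and Fnbp4 for Gad1 (r = 0.837, 0.836 and 0.822), Ppp1r15b, Usp25 and Serpini1 for Gad2 (r = 0.815, 0.8 and 0.797), and Midn, Kcnh2 and Sez6 for Slc32a1 (r = 0.788, 0.773 and 0.753). For Gabbr1 they were Mfge8, Git1 and Clptm1 (r = 0.905, 0.898 and 0.892), and for Gabbr2 Slc8a2, Nptx1 and Neto1 (r = 0.873, 0.871 and 0.857). Gabra2 was followed by Cpd and Nrcam (r = 0.901 and 0.898), Gabra4 by Smad3, Smpdl3b and Rab40b (r = 0.908, 0.875 and 0.866), Gabra5 by Neurod6, Arpc5 and Gsk3a (r = 0.86, 0.832 and 0.827) and Gabrd by Kcnk1, Perp and Nup85 (r = 0.8, 0.798 and 0.778). These are the highest of 15589 coefficients for each gene, and the median coefficient was between -0.066 and 0.018. The closest genes of Gad1 and Gad2 named here hold no interneuron marker of the lists given further on. With only 3 of 15589 genes named for each, this says nothing on interneuron content, which was not tested. Each of the 9 genes had a closer companion outside the set than within it, which the 15589 genes outside make likely for any small set.

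Within a gene, the rows of the table did not all move alike. They carry only the gene's identifier and symbol, so they are ranked by mean value here. Tested row by row, a step added after seeing the data, 27.3% of 20258 rows were called for older rats against YNG. Of the 12 Gabbr1 rows, the first held 66.4% of the gene's value and averaged 18307 ± 3678 in YNG (SD, n = 10), 14591 ± 3211 in AV (n = 12), 13363 ± 1585 in AA (n = 11) and 13536 ± 1635 in ADQ (n = 11). Its log2 difference in older rats was -0.39 (adjusted p = 0.009052), and the second row (-0.28, adjusted p = 0.1194, called at the unadjusted threshold) and the fifth (-0.45, adjusted p = 0.01423) were lower as well. The third row, with 7.94% of the value, differed by 0.050 (p = 0.6011 in limma), and no further Gabbr1 row was called in older rats against YNG. The first Gabra5 row, with 68.3% of the value, differed in the older rats by -0.36 (p = 0.009831, adjusted p = 0.07317), where the sum of its 4 rows was not called. None of the 3 Gad1 rows was called alone in older rats against YNG. The first Gad1 row was called in AA (0.28, p = 0.01803) and ADQ (0.24, p = 0.04484) against YNG, in limma. It was also called in AA against AV (0.25, p = 0.02949 in limma). Of all rows, 22.1%, 23.4% and 3.93% were called in these comparisons. Gad2, Slc32a1, Gabbr2, Gabra4 and Gabrd have 1 row each.

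Other genes of the pathway were given by lists written with earlier results of these data known. Of 12 other GABA-A subunits tested, 1 rose and 1 fell in older rats against YNG, and the median log2 difference was 0.05 (0.0039 over all genes). The background is the 15.7% higher and 16.7% lower given above, which the 1 of 12 in each direction does not exceed. With libraries scaled to the same total, it is 4954 of the 15598 genes tested called higher and 1011 lower. Gabra3, an alpha subunit, rose by 0.44 (adjusted p = 0.01089), from 261 ± 56.9 in YNG (SD, n = 10) to 345 ± 73.2 in AV, 356 ± 77 in AA and 365 ± 76.8 in ADQ. Gabrb1, a beta subunit, differed by -0.55 (adjusted p = 0.02303), from 645 ± 254 in YNG to 477 ± 199, 374 ± 95.6 and 426 ± 117. Of 17 genes that anchor or traffic GABA-A receptors, 6 fell and 0 rose, but with libraries scaled to the same total 6 rose and 2 fell (Gabarap and Nrxn2). Among the 6 were Gabarap, which binds the gamma subunit (-0.41, adjusted p = 0.02348), the palmitoyltransferase Zdhhc3 (-0.24, adjusted p = 0.01804) and the presynaptic adhesion gene Nrxn2 (-0.32, adjusted p = 0.02218). Of 6 chloride cotransporter genes, which set the chloride gradient that GABA-A receptors use, and their kinases, 3 rose and 0 fell, and 5 rose under scaling to the total. The 3 were the kinase Wnk1 (0.38, adjusted p = 0.009843), the chloride extruder Slc12a5 (0.24, adjusted p = 0.06076) and the chloride importer Slc12a2 (0.24, adjusted p = 0.104). Of 6 genes of GABA uptake and breakdown, Aldh5a1 rose (0.16, adjusted p = 0.1347), Aldh9a1 fell (-0.19, adjusted p = 0.09932) and 4 were not called, all at the unadjusted threshold in limma. The fall of Aldh9a1 was not called under scaling to the total, nor was the rise of Aldh5a1 without the 4 libraries of low granule cell markers. The potassium channel genes Kcnj3, Kcnj6 and Kcnj9, effectors of the GABA-B receptor, gave 0 calls of 3 in this comparison, and Kcnj9 differed between AA and AV by 0.23 (adjusted p = 0.9989), a call at the unadjusted threshold that was lost without those 4 libraries. Kctd8, Kctd12 and Kctd16 were not analysed here.

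Against AV, the same lists gave few calls in limma at the unadjusted threshold. Of all genes, 9.32% were called for ADQ and 4.51% for AA, so few calls would come from any lists of this size. In ADQ, 1 of 17 anchoring and trafficking genes was called, the vesicle fusion ATPase Nsf (0.20, adjusted p = 0.3989), and 0 of 12 other subunits, 0 of 6 uptake and breakdown genes and 0 of 6 chloride genes. In AA, 1 of 6 uptake and breakdown genes was called, the GABA transporter Slc6a13, with a difference of -0.59 (adjusted p = 0.9989), and 0 of 12 other subunits, 0 of 17 anchoring and trafficking genes and 0 of 6 chloride genes.

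Because Gad1, Gad2 and Slc32a1 are carried by interneurons, interneuron markers are given beside them, where 15.7% of all genes were called higher and 16.7% lower in older rats. In older rats against YNG, 2 of 10 interneuron transcription factors rose (Dlx2, 0.66, adjusted p = 0.01804, and Dlx1, 0.25, adjusted p = 0.1386) and 0 fell. Of 9 peptides and calcium-binding proteins 1 rose (Sst, somatostatin, 0.26, adjusted p = 0.07752) and 1 fell (Penk, proenkephalin, -0.34, adjusted p = 0.07922). Of 11 surface and other markers 4 rose and 0 fell, with the fast potassium channels Kcnc2 (0.38, adjusted p = 0.007562) and Kcnc1 (0.25, adjusted p = 0.05495) and the extracellular matrix gene Reln (0.37, adjusted p = 0.06387) first. The counts of 2 of 10 and 1 of 9 are near that background, and 4 of 11 lies above it. The summed surface markers spanned 14066 to 18683 in YNG, 12923 to 22292 in AV, 15568 to 31240.0 in AA and 17109 to 21172 in ADQ. The summed transcription factors spanned 968 to 1316 in YNG, 969.6 to 1481 in AV, 1072 to 1845 in AA and 1046 to 1484 in ADQ. Summed peptides and calcium-binding proteins spanned 2636 to 5059 in YNG, 2502 to 6267 in AV, 3311 to 6135 in AA and 2693 to 4472 in ADQ. No gene of the last pair of lists was listed at 0 in a rat. With libraries scaled to the same total, 4954 of the 15598 genes tested were called higher and 1011 lower in older rats. Under that scaling 5 transcription factors, 3 peptides and calcium-binding proteins and 7 surface markers rose and 0 fell, so Penk was then not called. Without the 4 libraries of low granule cell markers 1, 1 and 5 rose and 0, 2 and 0 fell, and the share of all genes in that fit is not given here. The part of interneuron content in the Gad1 and Gad2 differences was not tested.

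For granule cells, 3 of 8 markers fell and 0 rose in older rats, beside the same background of 16.7% lower (C1ql3, -0.77, adjusted p = 0.002313, Calb1, -0.53, adjusted p = 0.007293, and C1ql2, -0.42, adjusted p = 0.07078), beside the lower Gabrd. Scaling to the total, where 4954 of the 15598 genes tested were called higher and 1011 lower, left 2 lower and gave 2 higher. Without the 4 libraries 3 were lower and 2 higher. The summed granule cell markers spanned 17641 to 24804 in YNG, 11898 to 24672 in AV, 5946 to 26355 in AA and 19193 to 24816 in ADQ. Among markers of other cells, 0 of 8 for CA1 pyramidal cells and 0 of 5 for choroid plexus were called in this comparison at the unadjusted threshold, and 2 of 10 rose and 0 fell for CA3 pyramidal and mossy cells. For oligodendrocytes 5 of 10 rose and 0 fell, for endothelial cells 4 of 8 rose and 0 fell, and for microglia 1 of 10 rose and 0 fell. For astrocytes 1 rose and 2 fell of 10, for striatal and thalamic markers 1 rose and 1 fell of 8, and of 9 activity-regulated genes 2 rose and 0 fell. Under scaling to the total the oligodendrocyte, endothelial and microglia lists gave 9, 7 and 5 higher and 0 lower, beside the same 4954 higher and 1011 lower of all genes. The summed oligodendrocyte markers spanned 45957 to 126006 in YNG, 58975 to 185621 in AV, 56942 to 159999 in AA and 64231 to 82586 in ADQ. Of the choroid plexus markers, 7 of 10 were listed at 0 in at least 1 rat, with sums of 21.8 to 143 in YNG, 54.7 to 1464 in AV, 43.7 to 1036 in AA and 34.4 to 369 in ADQ. Against AV, the markers of non-neuronal cells were called lower in several lists, where 5.9% of all genes were lower and 3.42% higher in ADQ and 3.1% lower and 1.4% higher in AA. In ADQ these were 7 of 10 microglia markers, 5 of 10 oligodendrocyte markers, 6 of 8 endothelial markers, 2 of 5 choroid plexus markers and 2 of 10 astrocyte markers, with 0 higher, while 3 of 11 interneuron surface markers were higher and 0 lower. Examples are Csf1r, a microglial receptor (-0.37, adjusted p = 0.2658), Esam, an endothelial adhesion molecule (-0.61, adjusted p = 0.238), and Cnr1, the cannabinoid receptor of some interneurons (0.23, adjusted p = 0.4635). Without the 4 libraries of low granule cell markers the same counts for ADQ were 3, 0, 4, 1 and 1 lower and 1 interneuron surface marker higher. The calls of all genes in that fit are given in the last section. In AA 5 of 8 endothelial, 2 of 10 microglia and 2 of 10 astrocyte markers were lower and 3 of 11 interneuron surface markers higher, among them Kcnc1 (0.23, adjusted p = 0.9989) and Reln (0.36, adjusted p = 0.9989), beside the Slc32a1 call. Of 9 activity-regulated genes, 2 were lower in ADQ than in AV (Ier2 and Junb) and 1 higher in AA than in AV (Npas4, not called without those 4 libraries). Between AA and ADQ 5 of the 9 were higher in AA and 0 lower, with a median log2 difference of 0.53 over the list, where 2.13% of all genes were called higher. Without the 4 libraries 0 interneuron surface markers were called for AA. The part of these cells in the 9 genes' differences was not tested.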

How the data were processed

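RNA of the dentate gyrus of 44 rats was sequenced, 1 library per rat. Per the labels and the study's methods, the authors aligned reads to rn6 with STAR 2.5.3a in Partek Flow and deposited 1 table of signal values, gene reads divided by a median-ratio (DESeq2) size factor per library. The values are not counts. Steps between low values gave the estimated reads per rat, 10166556 to 24328425, but only 58.0% to 63.9% of low values were whole reads within 0.05 of a step, so no count model was run. More reads give a smaller counting error, mainly for low genes. No column of values was left without a rat. The labels give the age alone, and the group of each rat came from the authors' table of attributes, matched by rat name (ages matched for 44 of 44).

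Rows with the same gene identifier were summed (24694 rows, 18347 genes). Genes with a mean of at least 5 (15598) were tested on log2(value + 1) with limma 3.58.1 in R 4.3.3, in 1 fit of the 4 groups with a mean-variance trend, two-sided. Fold changes are on that log2 scale and are understated for low genes. A gene was called at an unadjusted p below 0.05, the study's threshold, with the Benjamini-Hochberg adjusted p over all genes beside it. Relations between rats used group-centred log2 values and 100000 permutations (scipy 1.17.1), and likeness is Pearson's r. The fit was tested on simulated data with 200 changed genes. Alternatives were other pseudocounts, filters, scalings, weights, rat number ranges, the top row of a gene and each rat left out. Leaving out the AV rats of the upper range or the rats of low granule cell markers, tests by row, list counts under other scalings, the relations with markers and totals and the promoter motifs were added after seeing the data.

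The 9 genes, the rat number ranges and all lists were chosen with earlier results of these data known. The text names the 9 genes, the 3 genes of each other list with the smallest p for older rats against YNG and up to 2 for AA and ADQ against AV, where called and described, and the 3 closest genes of each member, of which 1 is not reported here. Promoters were taken from RefSeq (GRCr8).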

Additional observations from a re-analysis of the deposited data

Results flagged for a closer look

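For Gabra5, YNG rat V1 was far above the other YNG rats: at 2345 normalized reads its gap to the next rat was 0.47 of the group's range, above Dixon's 95% critical value for 10 rats, and by chance about 1 group in 20 shows such a gap.

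The other values given here are differences of a group comparison between the rat number ranges, upper minus lower on the log2 scale, with the unadjusted p in limma. For Gad2 the AV minus YNG difference was -0.59 (p = 0.002255), the older minus YNG difference -0.31 (p = 0.0463), the AA minus AV difference 0.43 (p = 0.01766) and the ADQ minus AV difference 0.39 (p = 0.02975). For Gabrd the AV minus YNG difference was 0.55 (p = 0.03351). None of these 5 passed adjustment over all genes (adjusted p 0.05026, 0.2377, 0.9374, 0.9612 and 0.1887).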

How the results depend on the processing

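Of 63 results (9 genes in 7 comparisons), 18 were called. Over the settings other than leaving out 1 rat, 896 values kept their sign and side of the threshold, 30 lost the call, 37 gained one and 36 changed sign, 35 of these with p above the threshold on both sides. The exception was Gad2 in AV against YNG, called in the reported fit and -0.062 in the upper number range alone. The cause of the changes that follow was not tested. Under upper quartile scaling, log2 differences of opposite sign were 0.0039 for Gabra4 in ADQ against YNG, 0.014 for Gabbr2 in ADQ against YNG. Under scaling to the total, calls among the 9 genes numbered 3 for AA against YNG (reported 5), and log2 differences of opposite sign were 0.11 for Gabra4 in ADQ against YNG, 0.12 for Gabbr2 in ADQ against YNG, 0.058 for Gabra5 in ADQ against YNG, 0.024 for Gabra4 in AA against AV, 0.031 for Gabbr2 in AA against AV, 0.014 for Gabra4 in older rats against YNG, 0.015 for Gabbr2 in older rats against YNG. In a fit of the compared groups alone, calls among the 9 genes numbered 1 for AA against ADQ (reported 0). With array weights, calls among the 9 genes numbered 7 for AV against YNG (reported 3), 0 for AA against AV (reported 1), 2 for AA against ADQ (reported 0), 7 for older rats against YNG (reported 4), and calls among all genes numbered 7694 for AV against YNG (reported 3326), 7068 for AA against YNG (reported 4153), 8101 for ADQ against YNG (reported 4386), 1584 for AA against ADQ (reported 707), 8660 for older rats against YNG (reported 5058), and log2 differences of opposite sign were 0.020 for Gabra4 in ADQ against YNG, 0.071 for Gabra4 in AA against AV, 0.060 for Gabbr2 in AA against AV, 0.030 for Gabra5 in AA against AV. With the rat number range as a covariate, calls among the 9 genes numbered 1 for ADQ against AV (reported 0), that of Gad2 at 0.20. In the lower number range alone, calls among the 9 genes numbered 3 for ADQ against YNG (reported 5), 0 for AA against AV (reported 1), and calls among all genes numbered 5212 for AV against YNG (reported 3326), 885 for ADQ against AV (reported 1454), and log2 differences of opposite sign were -0.089 for Gad2 in AA against AV, -0.0059 for Gad1 in ADQ against AV, 0.012 for Gabrd in ADQ against AV. In the upper number range alone, calls among the 9 genes numbered 0 for AV against YNG (reported 3), 3 for AA against YNG (reported 5), 1 for ADQ against YNG (reported 5), 2 for ADQ against AV (reported 0), 1 for AA against ADQ (reported 0), 0 for older rats against YNG (reported 4), and calls among all genes numbered 984 for AV against YNG (reported 3326), 1928 for AA against YNG (reported 4153), 1077 for ADQ against YNG (reported 4386), 1375 for older rats against YNG (reported 5058), and log2 differences of opposite sign were -0.21 for Gabra2 in AV against YNG, -0.062 for Gad2 in AV against YNG, -0.21 for Gabra2 in AA against YNG, 0.054 for Gabra4 in ADQ against YNG, 0.084 for Gabbr2 in ADQ against YNG, -0.079 for Gabbr1 in AA against AV, 0.091 for Gabra4 in AA against AV, 0.0036 for Gabra2 in AA against AV, 0.010 for Gabbr2 in AA against AV, -0.037 for Gabrd in AA against AV, -0.090 for Gabra2 in older rats against YNG. With the row of highest mean of each gene alone, calls among the 9 genes numbered 2 for AA against AV (reported 1), 1 for AA against ADQ (reported 0), and log2 differences of opposite sign were -0.11 for Gabbr1 in AA against AV, -0.019 for Gabbr1 in AA against ADQ. Without the AV rats of the upper range, chosen after seeing the data, calls among the 9 genes numbered 5 for AV against YNG (reported 3), 1 for ADQ against AV (reported 0), and calls among all genes numbered 5252 for AV against YNG (reported 3326), 1541 for AA against AV (reported 703), and log2 differences of opposite sign were -0.0005 for Gad1 in AA against AV, 0.065 for Gabbr2 in AA against AV, -0.15 for Gad2 in AA against AV, -0.063 for Gad1 in ADQ against AV, 0.040 for Gabrd in ADQ against AV, -0.077 for Gad2 in ADQ against AV. Without the 4 rats of low granule cell markers, chosen after seeing the data, calls among the 9 genes numbered 1 for AA against ADQ (reported 0), and calls among all genes numbered 957 for ADQ against AV (reported 1454), and log2 differences of opposite sign were 0.030 for Gabra4 in AA against AV. Leaving out each of the 44 rats in turn gave ranges of 458 to 1055 calls of all genes for AA against AV, 471 to 1074 calls of all genes for AA against ADQ, 3 to 5 calls of the 9 genes for ADQ against YNG, 0 to 2 calls of the 9 genes for AA against AV, 0 to 1 calls of the 9 genes for ADQ against AV, 0 to 2 calls of the 9 genes for AA against ADQ, -0.031 to 0.11 for Gabra2 in AA against YNG, -0.052 to 0.0005 for Gabra4 in ADQ against YNG, -0.052 to 0.011 for Gabbr2 in ADQ against YNG, -0.026 to 0.041 for Gabbr1 in AA against AV, -0.070 to 0.038 for Gabra4 in AA against AV, -0.14 to 0.021 for Gabra2 in AA against AV, -0.069 to 0.019 for Gabbr2 in AA against AV. No paired analysis was possible because the replicate numbers follow accession order and pair no rats across groups. Depth differs between rats and only the normalized values were used, so no count model was run.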
